A study of Anopheles gambiae with 60 samples.

Results

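The male accessory gland of *Anopheles gambiae* was set against the male salivary gland with 8 of the 60 arrays in the series, 4 of each gland, chosen by their titles. The series is a tissue atlas of adult mosquitoes of a single strain, which the labels do not name, in 15 groups of 4 Affymetrix arrays each. Both glands came from adult males, given an age of 5 days in the labels, which the methods describe as having been kept apart from females since the pupal stage and so unmated. The males were siblings of blood-fed females, dissected with them 24, 48 and 72 h after the females' meal, and the labels word this meal as if it applied to both sexes. Each array was labelled from 50 ng of RNA pooled from several mosquitoes of all 3 times. The 4 arrays of a gland are biological replicates by the study's methods, and their pools average over individuals. Salivary gland samples included the duct and all lobes and had been rinsed to remove most of the attached fat body, whereas the methods do not describe which parts the accessory gland samples included. Of 22761 probe sets on the array, 16884 carry identifiers beginning with Ag (*Anopheles*), and 4422 of these were tested because their log2 intensity reached 5 in at least 3 of the 4 arrays of either gland, which is called detected here.

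Both organs are secretory epithelia. The accessory gland makes the proteins of the seminal fluid, which are passed to the female with the sperm and in *Anopheles* also form the mating plug. The salivary gland of males, which do not bite, serves sugar feeding, and its secretory cells, like those of the accessory gland, load large amounts of a few proteins into the endoplasmic reticulum for folding and export.

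The 2 glands share most of what they express, and they differ by very large factors in a small set of very bright probe sets. Of 3761 probe sets detected in the accessory gland and 3545 in the male salivary gland, 2884 were detected in both, which is 76.7% of the accessory gland's and 81.4% of the salivary gland's. In the limma fit 1239 probe sets were higher in the accessory gland (28.0% of those tested) and 981 were higher in the male salivary gland (22.2%), where a call needed both an adjusted p under 0.05 and a log2 difference no smaller than 1. In 1664 probe sets (37.6%) every accessory gland array lay above every male salivary gland array, and in 1170 (26.5%) every salivary gland array was the higher. Another 1111 (25.1%) were close, meaning that the whole 95% interval of the difference lay between -1 and 1, and 1091 were neither called nor close. The authors standardised the intensities separately for each tissue, so that a difference in level between the glands and a difference in that step cannot be told apart. Nor can fewer cells of a type and less RNA per cell be told apart in these bulk samples. Over all probe sets tested the median difference, accessory minus salivary, was 0.25 on the log2 scale. Centring the arrays on shared probe sets brought it to 0.10, with 1087 probe sets then higher in the accessory gland and 1091 in the male salivary gland, so differences are best read against a shift of this size.

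**Figure D1:**
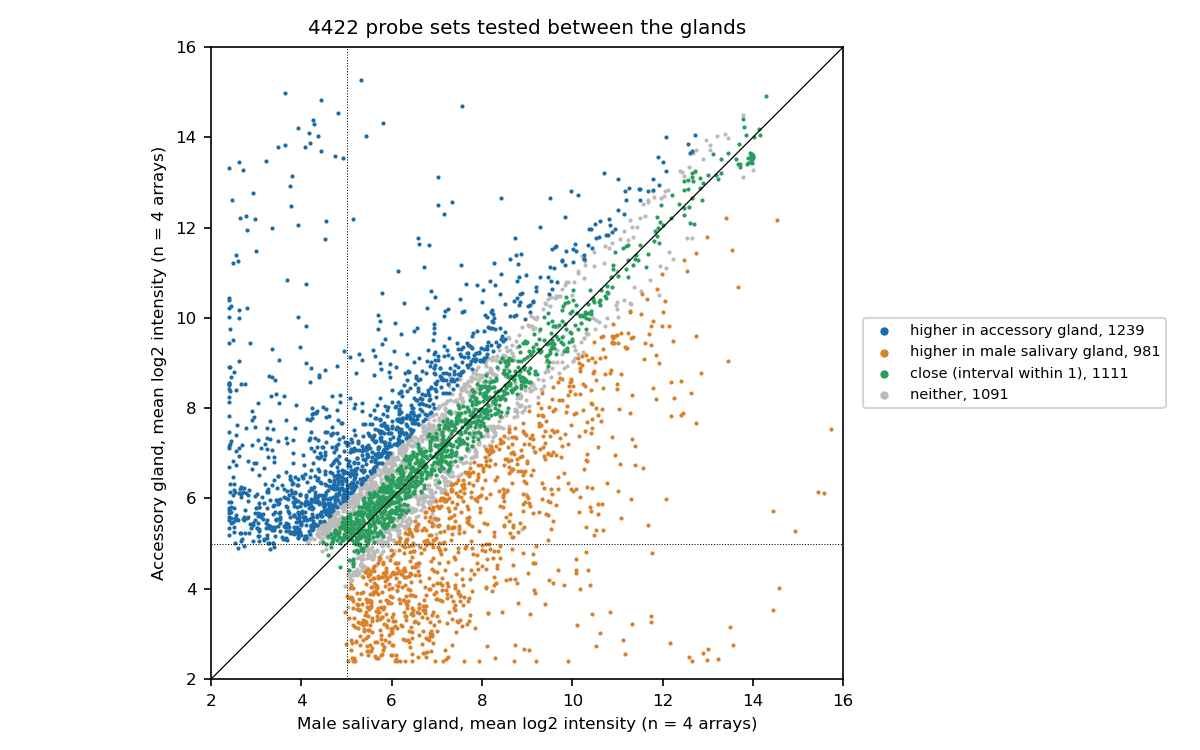
Mean log2 intensity of the 4422 tested probe sets in the accessory gland (vertical) and the male salivary gland (horizontal), each over 4 arrays, with dotted lines at the detection limit of 5. The 1239 probe sets higher in the accessory gland and the 981 higher in the male salivary gland reach the left and lower edges of the plot, and the 1111 close ones follow the diagonal.

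Some arrays of both glands also carried probe sets typical of other male tissues, and these were counted before the results. A set of 116 probe sets, chosen after the data were seen, was bright in the testis (mean log2 of at least 10) and undetected in male carcass, head, Malpighian tubules and midgut. In the accessory gland 44 of the 116 reached the limit on replicate 1 and 2 did so on each of replicates 2, 3 and 4. In the male salivary gland 56, 40, 17 and 33 reached it on replicates 1 to 4, against 2, 1, 5 and 5 in the female salivary gland. A set of 22 probe sets chosen in the same way for the Malpighian tubules reached the limit for 14, 2, 2 and 1 of its members on the accessory gland arrays and for 12, 19, 10 and 13 on the male salivary gland arrays. Accessory gland replicate 1 thus stood apart from its 3 partners for these 2 sets, while all 4 male salivary gland arrays lay above those 3. For the sets of the carcass (10 probe sets) and the midgut (16), 2 reached the limit on each accessory gland array. The median log2 intensity of the carcass set was still highest on replicate 1, at 4.05 against 3.19, 2.99 and 3.27 on replicates 2 to 4. For the midgut set the medians were 2.90, 3.06, 2.74 and 2.89, and all of these medians lay under the limit. On the male salivary gland arrays 10, 5, 3 and 6 of the carcass set, 7, 8, 5 and 4 of the midgut set and 5, 1, 3 and 1 of the 10 of the head reached it, against 1, 0, 0 and 0 of the head set in the accessory gland. Of the 116 testis probe sets 1 was called higher in the accessory gland and 26 in the male salivary gland. Among all calls, the testis was the brightest of the 15 groups for 175 (14.1%) of the probe sets higher in the accessory gland and 79 (8.05%) of those higher in the male salivary gland, against 13.4% of all tested, and without these the calls were 1064 and 902. The part that RNA of other tissues had in the differences was not tested. Without accessory gland replicate 1, 1261 probe sets were higher in the accessory gland and 1019 in the male salivary gland, and without replicate 1 of both glands, an alternative added after the data were seen, these were 1266 and 1059. The same alternative gave 2966 for the probe sets detected in both glands and 952 for the probe sets close in the 2 glands.

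**Figure D2:**
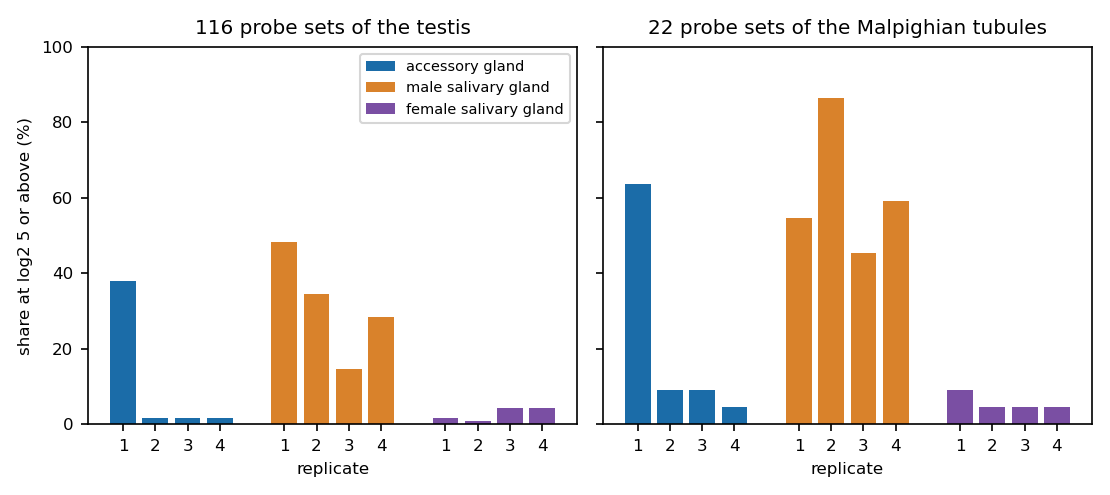
Share of probe sets at log2 5 or above (vertical, in %) on each array (replicate number, horizontal) of the accessory gland, the male salivary gland and the female salivary gland, for 116 probe sets of the testis and 22 of the Malpighian tubules. Accessory gland replicate 1 and all male salivary gland arrays stand above the other accessory gland arrays.

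Of the other cell types for which a marker had been listed, 2 could be checked, with 1 gene each. AGAP001826, set as a fat body marker for this work, had log2 intensities of 7.22, 5.27, 7.89 and 6.16 in the accessory gland and 9.14, 8.21, 10.14 and 8.99 in the male salivary gland. All salivary gland arrays lay above all accessory gland arrays, with a difference of -2.48 ± 0.59 (SE, adjusted p = 0.005). The gene was brighter still in the female salivary gland, at 12.08, 12.96, 12.18 and 11.01. It was detected in all 5 other male tissues, at 12.76 in the carcass, 11.82 in the head, 9.85 in the testis, 6.11 in the midgut and 5.89 in the Malpighian tubules. AGAP010147, set as a muscle marker, stood the other way round, at 6.67, 7.59, 6.82 and 6.55 in the accessory gland and 4.61, 3.05, 2.91 and 3.04 in the male salivary gland. The groups did not overlap, and all 4 salivary gland arrays were under the detection limit (difference 3.51 ± 0.40, adjusted p = 7.01e-05). None of the 18 salivary secreted proteins and none of the 4 seminal proteins listed by identifier for this work could be matched to a probe set, so the labels of the glands were not checked with secreted markers.

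The brightest probe sets of the glands overlapped in large part. Brightness of different probe sets also depends on their probes, so no order of abundance is read from it. Of the 100 brightest probe sets of the accessory gland, 63 were also among the 100 brightest of the male salivary gland, against 53 for the female salivary gland, 47 for the male head, 37 for the carcass, 36 for the testis, 33 for the Malpighian tubules and 30 for the midgut. From the side of the male salivary gland, the 63 stood against 72 for the female salivary gland and 54 for the male head. Counts of a gland share its arrays, and the differences between them were not tested. Of the 100 brightest of the accessory gland 39 were called higher there, against 28.0% of all tested. Of the 100 brightest of the male salivary gland 28 were called higher there, against 22.2% of all tested. Choice by brightness in a gland by itself favours such calls. Of the 63, 44 were close between the glands, where 25.1% of all tested were, though choice by brightness in both favours closeness. Of the same 63, 24 were among the 100 brightest of all 5 other male tissues and 16 were among those of none. The probe set Ag.3R.172.1_a_at had log2 intensities of 14.12, 14.15, 14.32 and 14.10 in the accessory gland and 13.98, 14.24, 14.30 and 14.06 in the male salivary gland, and the 2 ranges overlapped. Ag.2L.2855.0_s_at, the brightest of the close probe sets, had 14.95, 14.93, 14.90 and 14.85 in the accessory gland and 14.34, 14.21, 14.18 and 14.40 in the male salivary gland. Here all accessory gland arrays lay above the salivary gland arrays, by 0.63 ± 0.13 on the log2 scale (adjusted p = 0.0021), so a close probe set can still differ by a small and measurable amount. This was so for 231 of the 1111 close probe sets. Over the 2884 probe sets detected in both glands, the 2 gland means correlated at r = 0.752 (Pearson). The accessory gland correlated at 0.770 with the female salivary gland and at 0.595 (testis) to 0.702 (head) with the 5 other male tissues. The male salivary gland correlated at 0.866 with the female one and at 0.768 with the male head. With the remaining male tissues it correlated at 0.517 (testis) to 0.736 (carcass). Each correlation was taken over the probe sets detected in that pair. The points share the array design, its probes and the way the values were made.

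By detection, most other tissues, though not the midgut, had larger shares in common with each gland than the glands had with each other. The accessory gland's detected probe sets were found in the testis for 83.9%, in the Malpighian tubules for 82.7%, in the carcass for 80.7%, in the head for 77.8%, in the female salivary gland for 77.6%, in the male salivary gland for 76.7% and in the midgut for 73.6%. Of the male salivary gland's, 81.4% were found in the accessory gland, against 88.1% in the female salivary gland and 78.6% to 86.1% in the 5 other male tissues. These tissues also differ in how many probe sets they detect. Of the 2884 probe sets in both glands, 2156 (74.8%) were detected in all 5 other male tissues as well, 12 were detected in none of them, and 93.8% were detected in the female salivary gland. Of the 877 probe sets detected in the accessory gland and not in the male salivary gland, 151 (17.2%) were in none of the 5, and 24.2% were detected in the female salivary gland. Among the 661 detected only in the male salivary gland of the pair, 62 (9.38%) were in none of the 5 and 63.1% were detected in the female salivary gland.

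Close probe sets were mostly detected in both glands (91.7%), and their breadth was that of such probe sets. Of the 1111, 816 (73.4%) were detected in all 5 other male tissues, against 74.8% of the probe sets detected in both glands and 52.3% of all tested, and their median level over both glands was 6.87 against 6.43. Gene identifiers could be attached to 188 of them. AGAP000952 was the brightest of these, at 12.54, 13.37, 13.44 and 13.00 in the accessory gland and 13.08, 13.56, 13.38 and 12.87 in the male salivary gland. The 2 groups overlapped, with a difference of -0.14 ± 0.25. AGAP011832, of a cluster the study links to the Malpighian tubules, was at 11.46, 11.46, 10.89 and 11.30 in the accessory gland and 11.01, 11.44, 11.31 and 11.18 in the male salivary gland, again overlapping (difference 0.04 ± 0.18). AGAP007786, of a carcass cluster annotated to metabolism and cellular respiration, was at 11.09, 11.01, 11.11 and 11.08 in the accessory gland and 11.14, 11.35, 10.84 and 11.47 in the male salivary gland. AGAP009057, of the testis cluster, averaged 10.03 ± 0.14 in the accessory gland and 10.17 ± 0.22 in the male salivary gland (SD, n = 4 each). Over the 15 brightest close genes the difference ran from -0.52 to 0.46, all 15 were detected in all 5 other male tissues, and 14 were brighter in at least 1 of those tissues than in either gland. The exception was AGAP000952.

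Probe sets that stood out in both glands were sought with a contrast of the mean of the 2 glands over the mean of 5 other dissected male tissues (carcass, head, Malpighian tubules, midgut and testis, 4 arrays each). Of 7593 probe sets tested, 688 (9.06%) were higher in the glands, but 286 of these were detected in 1 gland only, and 399 in both. Both gland means lay above all 5 other male tissues for 171 of the 688, and 110 were in addition detected in both glands and within a log2 difference of 1 between them. These 110 are called the shared gland list. Both numbers depended on the scaling, and after quantile normalization of all 60 arrays they were 1191 and 263, with 100 of the 110 in the longer list. Their median excess over the other tissues was 1.46 on the log2 scale, 18 of them reached an excess of 2 or more, and 58 were close by the interval. Most were not particular to glands by detection, since 86 (78.2%) were found in all 5 other male tissues and 7 in none. Of all probe sets detected in both glands, 74.8% were found in all 5 and 0.416% in none. In the female salivary gland 107 of the 110 were detected, where 93.8% of all probe sets detected in both glands were. In 46 all 4 female salivary gland arrays lay above all arrays of the 5 male tissues, and the share of all probe sets with that property was not counted.

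Ag.2L.2592.0_CDS_at had the largest fitted excess in the shared gland list (adjusted p = 1.78e-18), but the 5 other tissues were all under the detection limit, and with these set to the limit its excess was at least 1.69, below the 2.77 of Ag.2R.463.2_UTR_s_at. It was at 6.58, 6.37, 6.78 and 5.68 in the accessory gland and 6.15, 8.01, 7.16 and 6.80 in the male salivary gland, and near the floor of the scale in the 5 other male tissues, with means between 2.37 and 2.47. In the female salivary gland it was also low, at 3.58, 3.26, 2.40 and 2.46. The other 9 of the 10 probe sets with the largest fitted excess were all detected in the female salivary gland. Ag.3R.194.0_CDS_at was at 8.27, 8.13, 7.47 and 7.43 in the accessory gland, 6.69, 7.47, 6.06 and 7.24 in the male salivary gland and 8.02, 7.65, 7.07 and 7.43 in the female salivary gland, and under the limit in all 5 other male tissues. Leaving out 1 of 4 single arrays (accessory gland replicate 3 or 4, male salivary gland replicate 2 or 4) moved its difference between the glands past the threshold, to between 1.08 and 1.16. Ag.3L.968.0_CDS_at was faint, at 5.89, 5.93, 5.93 and 5.93 in the accessory gland and 5.49, 5.98, 6.26 and 6.09 in the male salivary gland, and likewise undetected in the other 5. Its accessory gland values on replicates 2, 3 and 4 were identical, so signal above background is not established there. Ag.2R.463.2_UTR_s_at was the brightest of the 10, at 11.77, 11.69, 11.34 and 11.68 in the accessory gland and 10.49, 11.27, 11.43 and 11.75 in the male salivary gland, although its means in the other tissues, 8.05 to 9.21, were well above the limit too.

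**Figure D3:**
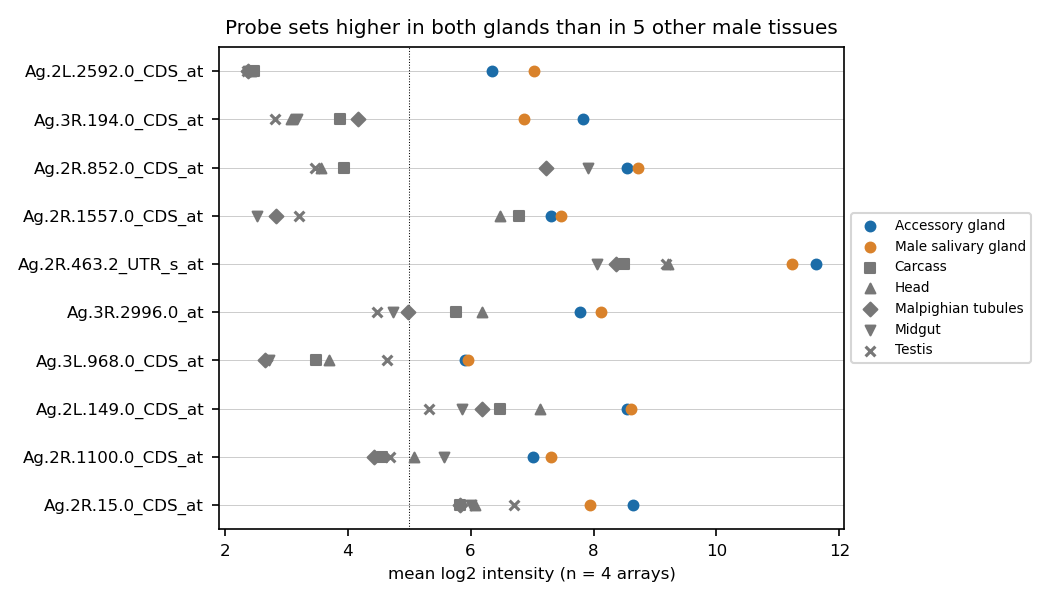
Mean log2 intensity (horizontal, 4 arrays each) of the 10 probe sets of the shared gland list with the largest fitted excess, in the accessory gland and the male salivary gland (circles) and 5 other male tissues (grey symbols); the dotted line is the detection limit. Both glands lie right of every other tissue in each row, and in 3 rows every other tissue lies under the limit.

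Gene identifiers were attached to 6 members of the shared gland list. AGAP001459 was higher in the 2 glands than in the other male tissues by 2.14 ± 0.10 (adjusted p = 1.89e-15), at 11.81, 11.98, 12.01 and 11.92 in the accessory gland and 10.86, 11.19, 11.19 and 11.38 in the male salivary gland. All its accessory gland arrays lay above its salivary gland arrays. AGAP006962, of cluster A4, was at 5.22, 6.09, 5.10 and 6.0 in the accessory gland and 5.05, 5.32, 4.66 and 5.25 in the male salivary gland, close to the detection limit, and at 7.82, 8.40, 8.70 and 8.61 in the female salivary gland. AGAP000654 (excess 1.47), AGAP001805 (1.08), AGAP000952 (1.63) and AGAP000082 (at least 0.75, with the other tissues at the limit) completed the 6. None of these identifiers comes with a described function in the tables used here.

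Among the probe sets higher in the accessory gland were many very bright ones that were at or near the floor of the scale in the male salivary gland. Of the 1239 probe sets higher there, 504 differed by a log2 value of at least 2, 90 by at least 5 and 38 by at least 8, and 484 were under the detection limit on all 4 male salivary gland arrays. The median difference over the 1239 was 1.75. Ag.3R.61.0_CDS_s_at was at 13.08, 13.33, 13.63 and 13.21 in the accessory gland and at 2.40, 2.40, 2.40 and 2.40, the floor of the scale, in the male salivary gland, at least 318-fold higher with the salivary value set to the detection limit (adjusted p = 2.03e-10). Ag.3R.715.0_CDS_at (13.26, 13.77, 13.50 and 13.25 in the accessory gland, 2.64, 2.71, 2.74 and 2.41 in the male salivary gland) was at least 349-fold higher. Both were as low in all 5 other male tissues, with no mean above 3.25. The largest fitted difference, 11.35 ± 0.61, belonged to Ag.3R.3653.0_at, at 14.90, 15.01, 15.12 and 14.92 in the accessory gland and 5.64, 3.72, 2.78 and 2.40 in the male salivary gland. Its salivary gland arrays were spread widely, with replicate 1 above the detection limit and replicate 4 at the floor of the scale, and without replicate 1 of both glands the difference was 12.05.

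This spread was common among the brightest. Of the 38 probe sets higher in the accessory gland by a log2 value of at least 8, 20 reached the detection limit on male salivary gland replicate 1, 11 on replicate 2, 2 on replicate 3 and 0 on replicate 4. On the female salivary gland arrays, which hold no male tissue by their labels, 0, 1, 10 and 2 of them did, and on the testis arrays 3, 13, 1 and 1. Ag.3R.742.0_CDS_s_at, for example, was at 15.28, 15.41, 15.12 and 15.27 in the accessory gland and at 7.46, 6.36, 3.94 and 3.51 in the male salivary gland. The source of this signal was not tested. In the opposite direction, 5, 4, 5 and 6 of the 21 probe sets higher in the male salivary gland by at least 8 reached the limit on accessory gland replicates 1 to 4.

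Among genes with an identifier the 15 most raised in the accessory gland had fitted differences of 4.06 to 9.22 on the log2 scale, whose order is not established where the lower gland is under the detection limit. AGAP002429 was at 12.05, 12.07, 12.53 and 12.12 in the accessory gland and 2.42, 3.27, 3.75 and 2.42 in the male salivary gland, at least 146-fold higher (adjusted p = 3.87e-08). It was near the floor in all 5 other male tissues, and in the female salivary gland it was at 4.76, 6.40, 5.28 and 4.18. AGAP006088 was at 13.92, 14.04, 14.02 and 14.11 in the accessory gland, the brightest of the 15, and 6.68, 5.01, 5.23 and 4.84 in the male salivary gland, 384-fold apart (difference 8.58 ± 0.37, adjusted p = 1.79e-07). Unlike AGAP002429 it was also detected in 4 of the 5 other male tissues, at 10.59 in the Malpighian tubules. AGAP000181 (9.80, 10.13, 10.52 and 10.43 in the accessory gland, 2.70, 2.98, 2.72 and 2.76 in the male salivary gland) was at least 37.2-fold higher and undetected in the 5 other male tissues. AGAP007093 was likewise undetected in those 5, at 7.01, 7.43, 7.15 and 6.59 in the accessory gland and 2.53, 2.53, 2.53 and 2.61 in the male salivary gland. In AGAP003539, the last of the 5 with that property, the values were 8.56, 9.10, 9.13 and 9.70 in the accessory gland and 4.90, 5.05, 5.07 and 5.26 in the male salivary gland, the salivary ones at the detection limit. In 14 of the 15 the accessory gland had the highest mean of the 7 male tissues. The exception, AGAP002415, was at 11.04 ± 0.17 in the accessory gland, 6.13 ± 0.58 in the male salivary gland (SD, n = 4 each) and 11.72 in the midgut.

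**Figure D4:**
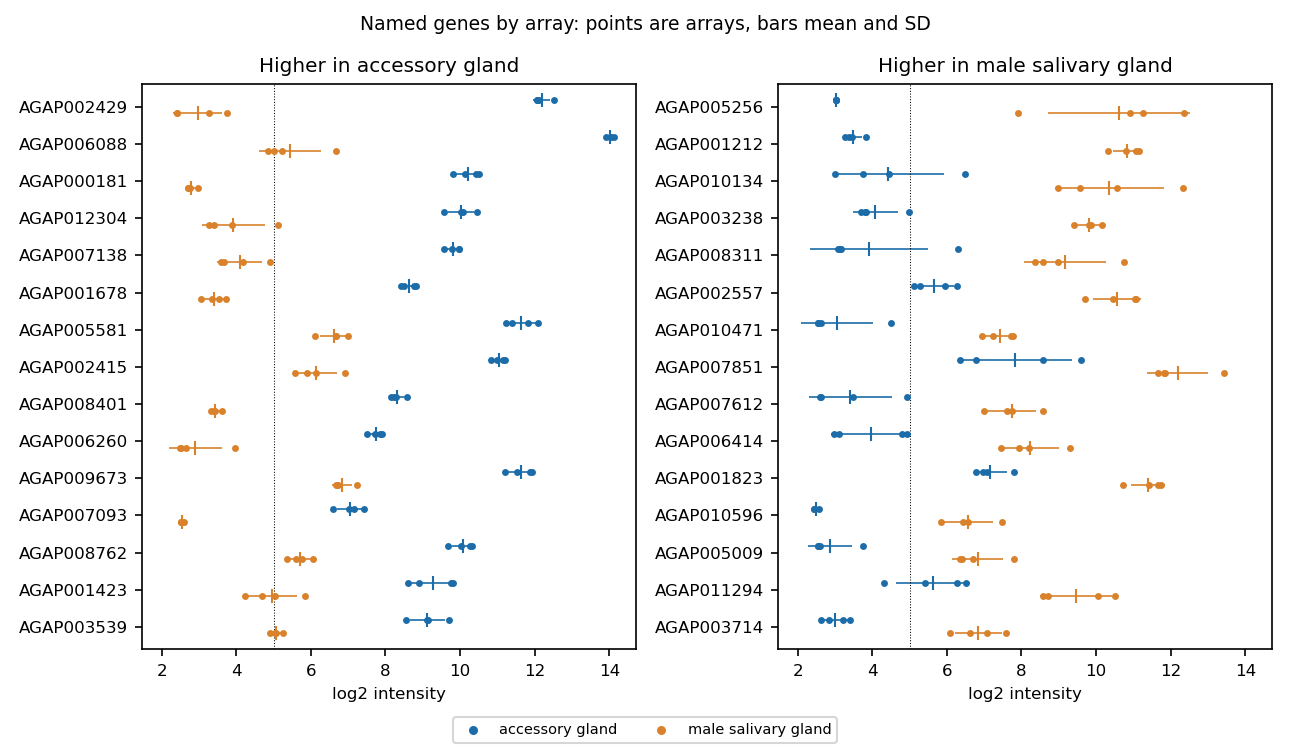
Log2 intensity (horizontal) on each array of the 15 genes most raised in the accessory gland (left panel) and the 15 most raised in the male salivary gland (right panel); points are arrays, bars give the mean and SD, and the dotted line is the detection limit. The 4 arrays of one gland lie apart from those of the other in every row, and male salivary gland values of AGAP005256 are the most scattered.

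Some of these genes were also bright in the female salivary gland. AGAP007138 was at 9.97, 9.97, 9.79 and 9.56 in the accessory gland and 3.60, 3.68, 4.91 and 4.18 in the male salivary gland, under the limit on all 4 arrays, yet at 11.39, 11.41, 11.68 and 11.49 in the female salivary gland. It was undetected in the 5 other male tissues. AGAP001423 was low in the male salivary gland too, with 8.89, 9.80, 9.75 and 8.61 in the accessory gland, 5.83, 4.24, 4.70 and 5.03 in the male salivary gland and 10.34, 10.19, 8.83 and 8.37 in the female salivary gland. Ag.X.428.0_CDS_at, chosen after its values were seen, was at 5.84, 6.21, 6.56 and 6.04 in the accessory gland and 4.95, 5.44, 4.82 and 4.82 in the male salivary gland, and higher than in both in the female salivary gland (8.39, 8.76, 8.08 and 7.61). Of 664 probe sets higher in the accessory gland and undetected in the male salivary gland, 133 (20.0%) were detected in the female salivary gland. The share was 24.2% for all 877 probe sets detected in the accessory gland and not in the male salivary gland, and 75.4% for all tested. In 20 of the 1239 every female salivary gland array lay above every accessory gland array, and the share of all tested with that property was not counted.

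Probe sets higher in the male salivary gland differed from the accessory gland by a median log2 value of 2.23. Of the 981, 576 reached a log2 difference of at least 2, 61 of at least 5 and 21 of at least 8, and 351 were under the limit on all 4 accessory gland arrays. Ag.3R.72.0_CDS_at was at 3.33, 3.38, 3.38 and 4.06 in the accessory gland and 14.02, 14.48, 14.70 and 14.62 in the male salivary gland, where it was at least 702-fold higher (adjusted p = 1.63e-09). Ag.2R.86.0_CDS_at was at 2.75, 2.75, 2.75 and 2.75 in the accessory gland and 13.48, 13.34, 13.62 and 13.82 in the male salivary gland. Both were undetected in the 5 other male tissues, and so belong to the 7 with that property among the 15 of largest fitted difference. Ag.2R.659.0_CDS_at was the brightest of these 15, at 5.64, 5.60, 5.96 and 7.28 in the accessory gland and 15.50, 15.60, 15.60 and 15.62 in the male salivary gland. It was also detected in 4 of the 5 other male tissues, with the highest means in the testis (8.58) and the Malpighian tubules (8.45). All 15 were detected in the female salivary gland. There Ag.2L.1077.0_CDS_at was brighter than in males, at 14.03, 14.17, 14.00 and 14.07, against 2.43, 2.43, 2.43 and 2.40 in the accessory gland and 12.93, 13.35, 12.50 and 13.13 in the male salivary gland. Of all 981, 763 (77.8%) were detected in the female salivary gland, near the 75.4% of all probe sets tested. Of the 1239 higher in the accessory gland 53.9% were.

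The named genes higher in the male salivary gland were mostly brighter still in another male tissue, unlike the probe sets above, where the salivary gland was brightest in all 15. Only genes with a relative abundance in at least 3 tissues could be given an identifier. The 15 most raised differed by -7.58 to -3.83 (accessory minus salivary), but in 12 of them another male tissue had a higher mean than the salivary gland. AGAP005256 was 1 of the 3 others, at 3.03, 3.03, 3.03 and 3.03 in the accessory gland and 10.90, 12.35, 11.27 and 7.92 in the male salivary gland, with all accessory gland arrays at 1 value and the salivary gland arrays spread over more than 4 log2 units. With the accessory gland set to the detection limit, this was at least 48.9-fold higher in the salivary gland (adjusted p = 3.87e-05), and without male salivary gland replicate 4 at least 91.1-fold. AGAP003238 (4.98, 3.81, 3.84 and 3.70 in the accessory gland, 9.41, 10.15, 9.81 and 9.85 in the male salivary gland) and AGAP002557 (5.94, 5.11, 6.27 and 5.28 in the accessory gland, 9.71, 10.45, 11.06 and 11.04 in the male salivary gland) were the other pair, and all 3 belong to cluster A4. AGAP001212, at 3.84, 3.45, 3.27 and 3.38 in the accessory gland and 10.33, 10.80, 11.06 and 11.14 in the male salivary gland, was brightest in the midgut, at 12.04. AGAP008311, of a carcass cluster, was at 6.29, 3.15, 3.09 and 3.14 in the accessory gland and 10.75, 8.97, 8.35 and 8.59 in the male salivary gland, with replicate 1 the highest in both glands, and at 12.77 in the carcass. AGAP010134, of the head cluster annotated to phototransduction, was at 6.48, 3.76, 4.46 and 3.01 in the accessory gland and 12.32, 9.57, 10.56 and 8.98 in the male salivary gland, with replicate 1 again the highest in both, and at 15.11 in the head. Without replicate 1 of both glands the differences of AGAP008311 and AGAP010134 were -5.51 and -5.96, against -5.25 and -5.93 with all arrays, and without accessory gland replicate 1 alone they were -6.04 and -6.62. Without male salivary gland replicate 1 alone the difference of AGAP010134 was -5.28. Both stayed called in these fits. Among the male tissues AGAP010471, AGAP007612, AGAP006414 and AGAP011294 were brightest in the midgut, AGAP007851, AGAP005009 and AGAP003714 in the carcass, and AGAP001823 and AGAP010596 in the Malpighian tubules. Of the 15 genes 12 were detected in the female salivary gland. There AGAP005009 averaged 9.98, above its 8.82 in the male carcass, and AGAP010596 averaged 11.49, against 11.98 in the male tubules.

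Restriction to the gland was counted for both directions. Among the 1239, 149 (12%) were detected in none of the 5 other male tissues, and in 546 (44.1%) the accessory gland mean was above all 5. Among the 981 the numbers for the male salivary gland were 56 (5.71%) and 210 (21.4%). Of all probe sets tested 5.09% were in none of the 5, near the share of the 981, and the mean was above all 5 for 18.2% in the accessory gland and 11.6% in the male salivary gland. Each set was chosen for a higher level in its gland, and 664 of the 1239 were tested only through the accessory gland. This choice by itself favours larger shares than those of all tested, so the shares are no evidence of restriction. The difference between the shares was not tested, and the 2 sets share all 8 arrays. Of the other male tissues the testis was the brightest for 43.5% of the probe sets higher in the accessory gland, against 33.7% of all tested. For the probe sets higher in the male salivary gland the carcass (29.0%) and the Malpighian tubules (28.6%) came first, with the testis at 15.5%, against 19.9%, 25.5% and 33.7% of all tested for these 3 tissues in the same order, so that the Malpighian share lay near its background.

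The study sorted genes into co-expression clusters from these same arrays, so that the clusters describe the glands and are not independent evidence about them. Identifiers could be attached to 723 of the tested probe sets, some of them in no cluster, of which 192 (26.6%) were higher in the accessory gland, 150 (20.7%) were higher in the male salivary gland and 188 were close. Cluster A4 is listed by the study with the salivary gland, and with the accessory gland of *Drosophila* for its orthologues, and is annotated to protein folding and signal peptide processing, the first steps of secretion. Of its 37 tested genes 4 were higher in the accessory gland, 23 were higher in the male salivary gland and 4 were close, and the median difference was -1.82 against 0.30 over the 723. Cluster A8, for which the study's summary gives no tissue or annotation, went the other way. Of its 30 tested genes 29 were higher in the accessory gland and none in the male salivary gland, with a median of 2.54, and AGAP005649, at a difference of 0.98, was the only one not called. AGAP002429 and AGAP006088 belong to it.

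**Figure D5:**
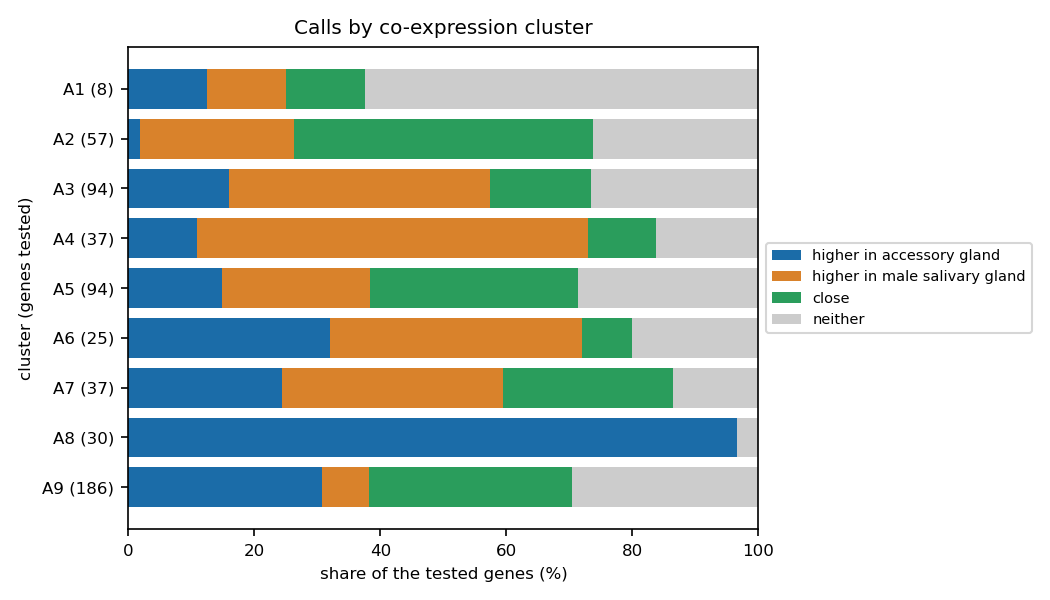
Share (horizontal, in %) of the tested genes of each co-expression cluster that were higher in the accessory gland, higher in the male salivary gland, close or neither; the number of tested genes is given beside each cluster. A8 is nearly all higher in the accessory gland (29 of 30), and A4 mostly higher in the male salivary gland (23 of 37).

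Within cluster A4, whose members other than the leading ones were named after their values were seen, the size of the difference varied widely. AGAP004551 was bright in both glands, at 8.89, 7.95, 8.84 and 8.13 in the accessory gland and 11.32, 11.95, 11.55 and 12.29 in the male salivary gland, without overlap (difference -3.32 ± 0.29, adjusted p = 1.31e-05). AGAP007366 was at 11.29, 11.61, 11.29 and 11.86 in the accessory gland and 13.49, 13.48, 13.48 and 13.74 in the male salivary gland, and in the 5 other male tissues its means lay between 8.63 and 11.72. AGAP006063 was at 9.69, 9.30, 9.13 and 9.18 in the accessory gland and 11.15, 11.06, 11.08 and 11.43 in the male salivary gland, and higher again in the female salivary gland (13.18, 13.40, 13.05 and 13.21). These 3 genes were detected on all arrays of both glands and passed the test as higher in the salivary gland. AGAP007919 (6.49, 6.41, 7.20 and 6.20 in the accessory gland, 6.18, 6.34, 6.62 and 6.52 in the male salivary gland) and AGAP007638 (6.82, 7.0, 7.45 and 6.69 in the accessory gland, 6.35, 6.33, 6.78 and 6.79 in the male salivary gland) overlapped between the glands. The 4 higher in the accessory gland were AGAP007138, AGAP011948, AGAP002101 and AGAP000102. AGAP011948 was at 8.16, 7.88, 7.79 and 7.54 in the accessory gland and 7.76, 5.16, 4.64 and 4.52 in the male salivary gland, with salivary gland replicate 1 far above its partners and within the accessory gland range. The difference of AGAP011948 was 2.32 with all arrays and 2.96 without replicate 1 of both glands, and it was called in both. AGAP002101 was at 6.28, 7.09, 6.98 and 6.69 in the accessory gland and 5.07, 5.22, 5.80 and 5.62 in the male salivary gland, without overlap. AGAP000102 differed by 1.13 ± 0.39, and its call was lost in 6 of the 8 fits that left out 1 array.

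In A3, linked to the carcass, 15 of 94 tested genes were higher in the accessory gland and 39 (41.5%) in the male salivary gland, with a median of -0.74, against 26.6% and 20.7% of the 723. The fat body marker, in no cluster, was also higher in the salivary gland, whereas the muscle marker AGAP010147, itself a member of A3, was higher in the accessory gland by 3.51. In A9, linked to the testis and annotated to spermatogenesis and microtubule-based processes, of which only a part could be used, 57 of 186 (30.6%) were higher in the accessory gland, near the 26.6% of the 723, and 14 (7.53%) were higher in the male salivary gland. Its median of 0.54 had the sign of the 0.30 over the 723. In A2, also linked to the carcass, 1 of 57 (1.75%) was higher in the accessory gland, 14 (24.6%) were higher in the male salivary gland, near the background, and 27 were close.

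The arm on which a probe set lies, read from its identifier, was uneven among the most different probe sets. Arm 3R held 20.8% of the probe sets tested and 21.8% of those higher in the accessory gland, but 70 of 241 (29.0%) at a log2 difference of at least 3, 35 of 90 (38.9%) at least 5 and 19 of 38 (50.0%) at least 8. These 19 came from 18 transcript families by their identifiers. Among the 21 probe sets higher in the male salivary gland by at least 8, 10 lay on 2L, which held 21.7% of those tested, and these 10 came from 7 families. Probe sets with no arm in their identifier (UNKN) were 7 of the 38 (18.4%), against 4.73% of those tested, so the arm of these 7 is open. No probe set on the X differed by 8 or more in either direction. The X held only 6.94% of those tested, so few were to be found there in sets of this size. Neighbouring or duplicated genes can share a probe set's signal, no test was made, and members of a family are not independent.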

How the data were processed

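RNA of 4 accessory gland and 4 male salivary gland pools had been hybridised to Affymetrix arrays, and the values used are the deposited linear intensities, which the authors made with GCRMA, per the labels, and standardised within tissues. The salivary gland arrays of both sexes share 1 lowest intensity (5.28), and those of the accessory gland have their own (5.27). They were taken to the log2 scale here, where their floor is at about 2.40. No counts underlie them, so the number of arrays limits the precision. The glands were compared with limma 3.58.1 (R 4.3.3; Python 3.11.15 for the rest), with Benjamini-Hochberg adjustment over all 4422 tested probe sets, and with exact two-sided permutation tests for single array measures, whose smallest p for 4 against 4 arrays is 0.0286. The number of Ag probe sets at log2 5 or more per array (3913 ± 152 in the accessory gland, 3729.5 ± 166 in the male salivary gland, SD, n = 4 each) gave an exact permutation p of 0.171. It was higher in the accessory gland in all 4 pairs of same-numbered arrays (exact paired permutation p = 0.125, the smallest that 4 pairs allow). Where all arrays of the lower gland were under log2 5, a fold is given as a bound against that limit. In a simulation 200 of 4422 probe sets were changed, with normal noise and without a floor or a detection limit. There 79% of probe sets changed by a log2 value of 1.5 and 97% of those changed by 3 were recovered, with 5 false calls among 181. Far more probe sets were called in the data, and many lay near the floor, so these rates need not hold for the calls reported.

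No table used here pairs probe sets with genes. Identifiers come from matching relative abundances over tissues to the study's gene tables, of which only parts were used (tolerance 0.0006, at least 3 tissues), which joined 1173 of 1352 eligible genes; 0.152% matched after shuffling. Named genes are the 15 most different in each direction without overlap and the 15 brightest close ones among joined genes, the same by probe set identifier (1 per transcript, 5 for close ones), and the 10 largest of the shared gland list with its joined genes. The tissue probe sets, other members of cluster A4, and the probe sets named by identifier were chosen after their values were seen. Members and lists were chosen with earlier results of these data known. Lists defined by gene descriptions (folding, glycosylation, proteases, ribosomal proteins and others) could not be applied.

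Same-numbered arrays of the glands deviated together, with correlations of 0.168, 0.142, 0.346 and 0.201 across probe sets. Each accessory gland array correlated best with the male salivary gland array of its own number. The methods do not say that the numbers link the glands, and what same-numbered arrays shared was not tested. The main fit did not use the numbers, and a fit with them as a block is given below. Alternatives covered normalization, the detection limit, the model, and each array left out.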

Additional observations from a re-analysis of the deposited data

Results flagged for a closer look

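Among 210 groups of 4 arrays examined, 16 held 1 array whose gap to its nearest partner took up more of the group's range than Dixon's 95% critical value allows, where chance gives about 1 in 20. AGAP002429 stood at 12.53 on accessory gland replicate 3, above the other 3 arrays (12.05 to 12.12). AGAP009673 was at 7.24 on male salivary gland replicate 4, above the other 3 arrays (6.67 to 6.74). AGAP007851 had a log2 intensity of 13.42 on male salivary gland replicate 1, above the other 3 arrays (11.66 to 11.84). Ag.2L.32.0_CDS_s_at stood at 14.96 on male salivary gland replicate 3, above the other 3 arrays (14.44 to 14.48). Ag.2R.659.0_CDS_at was at 15.50 on male salivary gland replicate 1, below the other 3 arrays (15.60 to 15.62). Ag.3L.2011.0_CDS_at had a log2 intensity of 11.66 on male salivary gland replicate 1, below the other 3 arrays (12.29 to 12.39). AGAP005134 stood at 10.20 on male salivary gland replicate 2, below the other 3 arrays (10.48 to 10.49). AGAP000815 was at 10.64 on male salivary gland replicate 4, above the other 3 arrays (10.25 to 10.29). AGAP000897 had a log2 intensity of 9.33 on male salivary gland replicate 2, below the other 3 arrays (9.79 to 9.85). Ag.3L.968.0_CDS_at stood at 5.89 on accessory gland replicate 1, below the other 3 arrays, which held an identical value (5.93). AGAP000654 was at 9.48 on male salivary gland replicate 1, below the other 3 arrays (9.86 to 9.92). AGAP009831 had a log2 intensity of 7.48 on male salivary gland replicate 2, above the other 3 arrays (5.88 to 6.15). AGAP004861 stood at 7.37 on accessory gland replicate 1, above the other 3 arrays (6.69 to 6.74). AGAP007366 was at 13.74 on male salivary gland replicate 4, above the other 3 arrays (13.48 to 13.49). AGAP000656 had a log2 intensity of 6.30 on male salivary gland replicate 3, above the other 3 arrays (5.68 to 5.78). AGAP000615 stood at 8.07 on accessory gland replicate 3, above the other 3 arrays (6.39 to 6.65).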

How the results depend on the processing

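With the replicate number as a block, 1244 probe sets were higher in the accessory gland and 999 in the male salivary gland, and no call of a named probe set changed. Leaving out 1 array at a time gave 1160 to 1272 and 939 to 1025, 987 to 1088 close probe sets and 2901 to 2990 detected in both glands. A required log2 difference of 2 left 504 and 576. The number of probe sets close in the 2 glands was 11544 of 16884 without a detection limit, since probe sets under the limit in both glands are then included. After quantile normalization of all 60 arrays, 1191 probe sets were higher in both glands than in the other male tissues and the shared gland list held 263, among them 100 of the 110; the cause was not tested. The balance of calls turned with 2 settings, to 1087 in the accessory gland against 1091 in the male salivary gland after median centring and at the required difference of 2. Over the alternatives, the 87 named probe sets with a call kept it in 1865 values and lost it in 31, with none of the other sign, and the 44 without a call gained one in 6 values and took the other sign in 24, of 9 probe sets. AGAP000102 (1.13) and AGAP009468 (-1.37) each lost their call in 6 of 8 fits without 1 array, and AGAP011810 (0.81) gained one without male salivary gland replicate 1.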
